A study of Caenorhabditis elegans with 24 samples.

Results

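Loss of both *set-9* and *set-26* was compared with wild type by RNA sequencing of pools of whole *C. elegans* worms. The comparison takes 2 libraries labelled *set-9 set-26* and 2 libraries of N2, the wild-type strain, which are 4 of the 8 libraries in the expression table and 4 of the 24 samples of the whole series. Members are those genes that reached 20 reads in any 1 of the 8 libraries, which left 14667 of the 46508 genes in the table. In the study the double mutant carries *set-9(rw5)*, a genome-edited allele with an early stop codon, and *set-26(tm2467)*, and the strain is kept as a heterozygote over the balancer nT1. N2 carries neither allele. The methods describe synchronized worms at mid to late L4, the last larval stage, on NGM plates. The sample labels give the genotype and the stage. They do not give the generation of the double mutant, and the study profiled F1 and F3 worms. Its account of PCR checks for this genotype names F3, but the labels do not tie these libraries to a generation. The study describes the germline of F3 double mutants as quite different in form from that of wild type and of F1. The other 4 libraries, 2 of the *set-9* and 2 of the *set-26* single mutant, shared the estimate of the spread between replicates and are used here to place named genes. Ribosomal RNA was removed from total RNA before the libraries were made, so RNAs without a poly(A) tail could also be counted.

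SET-9 and SET-26 are nearly identical proteins with a PHD finger, a module that reads histone marks, and a SET domain, the fold of histone methyltransferases. They are related to mammalian MLL5 and to *Drosophila* UpSET. The study describes binding of both to trimethylated lysine 4 of histone H3 (H3K4me3), a mark of active gene starts, with roles in the germline and, for SET-26, in lifespan. At L4 the hermaphrodite gonad makes sperm before it turns to oocytes, while the epidermis prepares the adult cuticle. Genes of both programs therefore change quickly within this stage.

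The labels were checked first on *set-9* (WBGene00017482, chromosome IV, 4307896 to 4317140 in WBcel235). Its level was 90.4 and 91.4 CPM (reads scaled to a common library size by edgeR's TMM method) in the N2 libraries and 30.6 and 33.0 in the double mutant. This is a difference of −1.52 on the log2 scale, with a standard error of 0.11 and an adjusted p of 0.0015, where p values are those of edgeR's quasi-likelihood test with Benjamini-Hochberg adjustment throughout. The *set-9* single mutant stood at 46.0 and 39.9 CPM and the *set-26* mutant at 115 and 107. Reads of the 2 paralogs can be assigned to either copy, so these levels are uncertain, and *set-26* itself was not analysed here. Total reads in genes were 26187794 and 18838702 for N2, 17568712 and 18396544 for the double mutant. Their replicates correlated with r = 0.983 and r = 0.989 across genes on the log2 CPM scale, where genes are not independent replicates. Nothing in the labels says that libraries came from separate cultures, so the p values measure the spread between libraries only. In several lists of markers the N2 libraries differed from each other more than the double mutant libraries did. The summed level of the major sperm proteins was 703 and 275 CPM in N2 against 1017 and 1045 in the double mutant, that of oocyte and eggshell genes was 3711 and 2130.4 against 4081 and 4297, and that of the vitellogenins (yolk proteins) was 13936 and 5864 against 9331 and 6189.8. Lists of the epidermis were among them, with apical matrix and molting genes at 14877 and 18543 in N2 against 9391 and 9202. In other lists, such as the histone genes, the double mutant libraries differed more, with 5928.5 and 5479.8 in N2 against 5353.5 and 6523.6. Both single mutants, like N2, had more sperm, oocyte and yolk RNA in replicate 1 than in replicate 2. Their major sperm protein sums were 289 and 125 CPM (*set-9*) and 488.5 and 287.5 (*set-26*). The oocyte sums were 2967 and 1811 and 2241 and 1307.5, and the vitellogenin sums 5519 and 1913 and 1112 and 305.6. Of these lists the double mutant kept that order for the vitellogenins alone. In RNA from whole worms, fewer cells of a type and less RNA per cell cannot be told apart.

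Of the 14667 genes tested, 649 were higher (4.42%) and 867 were lower (5.91%) in the double mutant at a nominal false discovery rate of 5%. The balance of the counts was not stable, since the N2 and double mutant libraries fitted alone gave 699 higher and 559 lower genes, and a 2-fold limit gave 489 and 268. These percentages are the background for the gene lists below, whose members passed the same filter on low reads. Over all tested genes the median log2 fold change was 0.006. The genes that rose and those that fell lay at different levels of expression. The higher genes had a median N2 level of 5.11 CPM and a median log2 fold change of 1.39, whereas the lower genes had a median N2 level of 69.2 CPM and a median change of −0.80, and the median level of all tested genes was 10.2 CPM. At least 4-fold changes were seen for 174 higher and 31 lower genes. In 27 of the higher genes both N2 libraries had 0 reads, and in 1 of the lower genes both double mutant libraries did. On the X chromosome 6.02% of tested genes were higher and 7.19% were lower, against 3.06% to 4.68% and 5.09% to 6.11% on the 5 autosomes.

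**Figure D1:**
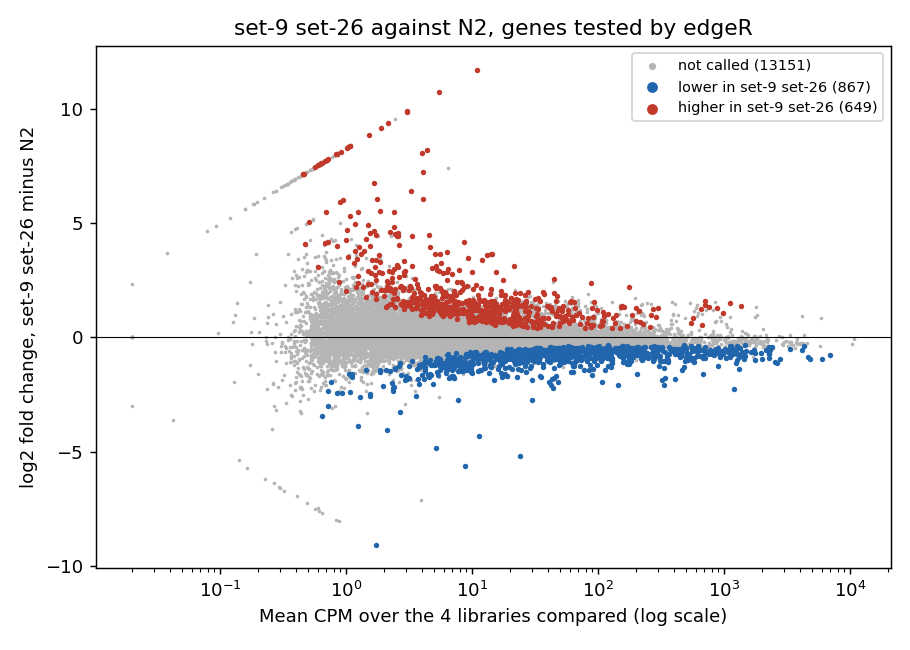
Each point is 1 of the 14667 genes tested, with its mean CPM over the N2 and double mutant libraries on a log axis and its log2 fold change, *set-9 set-26* minus N2, on the vertical axis. Red points (649) were higher and blue points (867) lower at the 5% rate, and the diagonal line of points at low levels holds genes with 0 reads in one genotype, whose fitted fold change has no meaning as a size. The higher genes lie mostly at low levels and the lower genes at high levels.

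The number of called genes rested on each of the 4 libraries. Without N2 replicate 1, N2 replicate 2, double mutant replicate 1 or double mutant replicate 2, the higher genes numbered 342, 177, 93 and 54 and the lower genes 397, 295, 194 and 80. In these fits the lone library of a genotype is assumed to vary as the other genotypes do. Across the full fit and all 4 of these, 49 genes were called higher and 65 lower each time. Of the 49, 16 were on the X chromosome and 15 on chromosome V, and of the 65, 12 were on the X chromosome and 19 on chromosome V. The X chromosome held 2044 and chromosome V 2862 of the 14667 genes tested. A departure from these shares was not tested. Counts of list members without each library are given below in the same order, and a gene described as called in every fit is one of these 114. A called gene outside them lost its call without at least 1 library. Of the genes named below, *his-2*, *his-4*, *his-5*, *his-6*, *his-17*, *his-32*, *his-40*, *Y47D7A.18*, *D1014.6*, *BE0003N10.6*, *Y48G9A.11*, *meg-2*, *his-1*, *utx-1*, *coh-1*, *cebp-1*, *usp-33*, *col-107*, *col-166*, *col-170*, *dpy-6*, *dpy-14*, *dpy-17*, *grd-10*, *grd-13*, *fipr-1*, *fipr-2*, *hsp-16.1*, *vha-6*, *vha-11*, *vha-12*, *atp-2*, *ant-1.1*, *mai-2*, *asp-1*, *asp-12*, *cpr-1*, *elo-1*, *gst-24*, *clec-52*, *clec-137*, *tnt-4*, *che-3*, *catp-3*, *inx-2*, *M04C3.1*, *tbb-6* and *ahcy-1* were among the 114.

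The largest increases were at genes that were silent or nearly so in N2. They were taken by fold change from called genes that had 20 reads or more in each double mutant library. *pgp-8* (WBGene00004002, chromosome X, 10859301 to 10864422), an ABC transporter gene of the P-glycoprotein family, had 0 reads in both N2 libraries and 424 and 419 in the double mutant, at least 152-fold higher when N2 is set to a floor of 3 reads per library. It stood at 22.2 and 27.5 CPM in the *set-26* mutant too, against 22.5 and 21.4 CPM in the double mutant (adjusted p = 0.91 for that difference, edgeR), and at 3.72 and 0 in the *set-9* mutant. *pgp-8* overlaps an annotated piRNA, and its adjusted p was 0.056 to 0.098 (edgeR) with 1 library left out.

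*Y47D7A.18* (chromosome V, 4415965 to 4416810) had 0 reads in both N2 libraries and 120 and 117 in the double mutant, at least 42.8-fold higher, and was called in every fit. It was near 0 in both single mutants, 0.0555 and 0.0651 CPM in the *set-9* mutant and 0 and 0.0541 in *set-26*. It passed the filter on low reads through the double mutant libraries alone, as did the genes below that were near 0 elsewhere. *oac-10*, a gene of the O-acyltransferase family, rose at least 76.5-fold, from 0 reads in both N2 libraries to 182 and 243, and *abt-1*, an ABC transporter gene, at least 42.1-fold, from 0 to 173 and 58. With 1 library left out the adjusted p of *oac-10* was 0.088 to 0.15 and that of *abt-1* was 0.11 to 0.16 (edgeR). The remaining genes of this kind were *C05B5.11* (at least 29.8-fold), *fipr-20* (21.0), *srlf-18* (15.0), *clec-197* (14.9) and *ugt-43* (14.4), with a gene listed as WBGene00011619 (26.2). In the single mutants *C05B5.11* was at 0 and 0 CPM (*set-9*) and 0.2 and 0.0541 CPM (*set-26*), *fipr-20* at 0.167 and 0.0651 and 0.1 and 0.0541, *srlf-18* at 0 and 0 and 0.05 and 0, and *clec-197* at 0 and 0 and 0.1 and 0.

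The largest decreases were fewer and smaller. *C46G7.1* (chromosome IV, 6018003 to 6019716) fell from 101 and 52 reads in N2 to 0 in each double mutant library, at least 22.2-fold lower. It was also at 0 in both *set-26* libraries and at 11.8 and 3.39 CPM in *set-9*, and it overlaps *pqn-22*, so its count is uncertain. *D1014.6* fell from 13.2 and 21.2 CPM to 0.636 and 0.051, or by −5.63 on the log2 scale (error 0.69, adjusted p = 0.0081, edgeR), and *BE0003N10.6* from 29.5 and 63.8 to 1.91 and 0.612 (−5.21, 0.55, 0.0045). Both were called in every fit, with sizes that moved with the library left out, over −8.22 to −4.74 for *D1014.6* and −6.24 to −4.55 for *BE0003N10.6*. Both single mutants were below N2 as well. *D1014.6* stood at 1.61 and 1.63 CPM in *set-9* against 0 and 0 in *set-26*, and *BE0003N10.6* at 5.67 and 5.21 against 0.6 and 0.865. *Y48G9A.11* differed from these. It fell from 3.78 and 4.20 to 0.371 and 0.102 CPM (−4.05, adjusted p = 0.0053, edgeR) but stood at 5.39 and 3.97 in the *set-9* mutant and 5.55 and 4.65 in *set-26*, and the double mutant was below each (adjusted p = 0.0020 and 0.0039, edgeR). Its log2 fold change ran over −5.20 to −3.40 with 1 library left out, and it overlaps *Y48G9A.7*, so its count is uncertain. The other large decreases were at *Y71G12B.18* (−4.86, or −10.59 to −3.85 with 1 library left out), *D1014.7* (−4.32), *M117.6* (−3.88), *gly-1* (−3.28), *C10C6.7* (−2.99) and *Y48E1B.8* (−2.76). Of these, *M117.6* and *Y48E1B.8* overlap other genes.

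**Figure D2:**
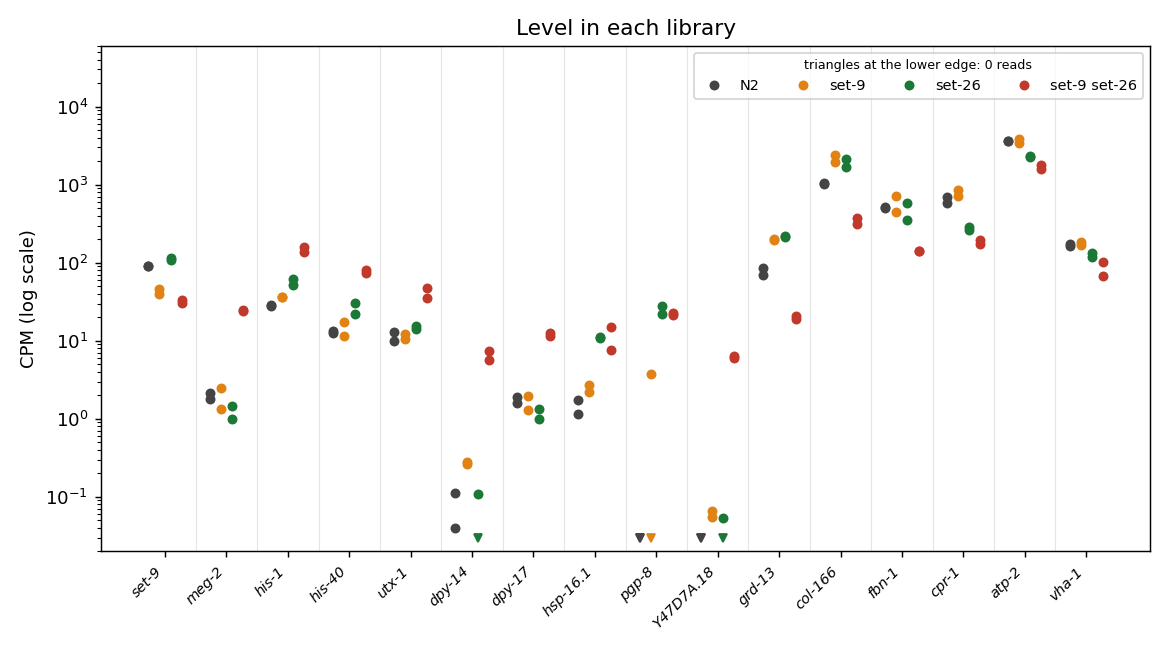
Level in CPM on a log axis of 16 genes in each of the 8 libraries, with points coloured by genotype and triangles at the lower edge for libraries with 0 reads. *meg-2*, *his-1*, *dpy-14* and *Y47D7A.18* are higher in the double mutant than in the other 3 genotypes, *grd-13* and *col-166* are lower than in the other 3, and *pgp-8* is at a similar level in *set-26* and in the double mutant.

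**Figure D3:**
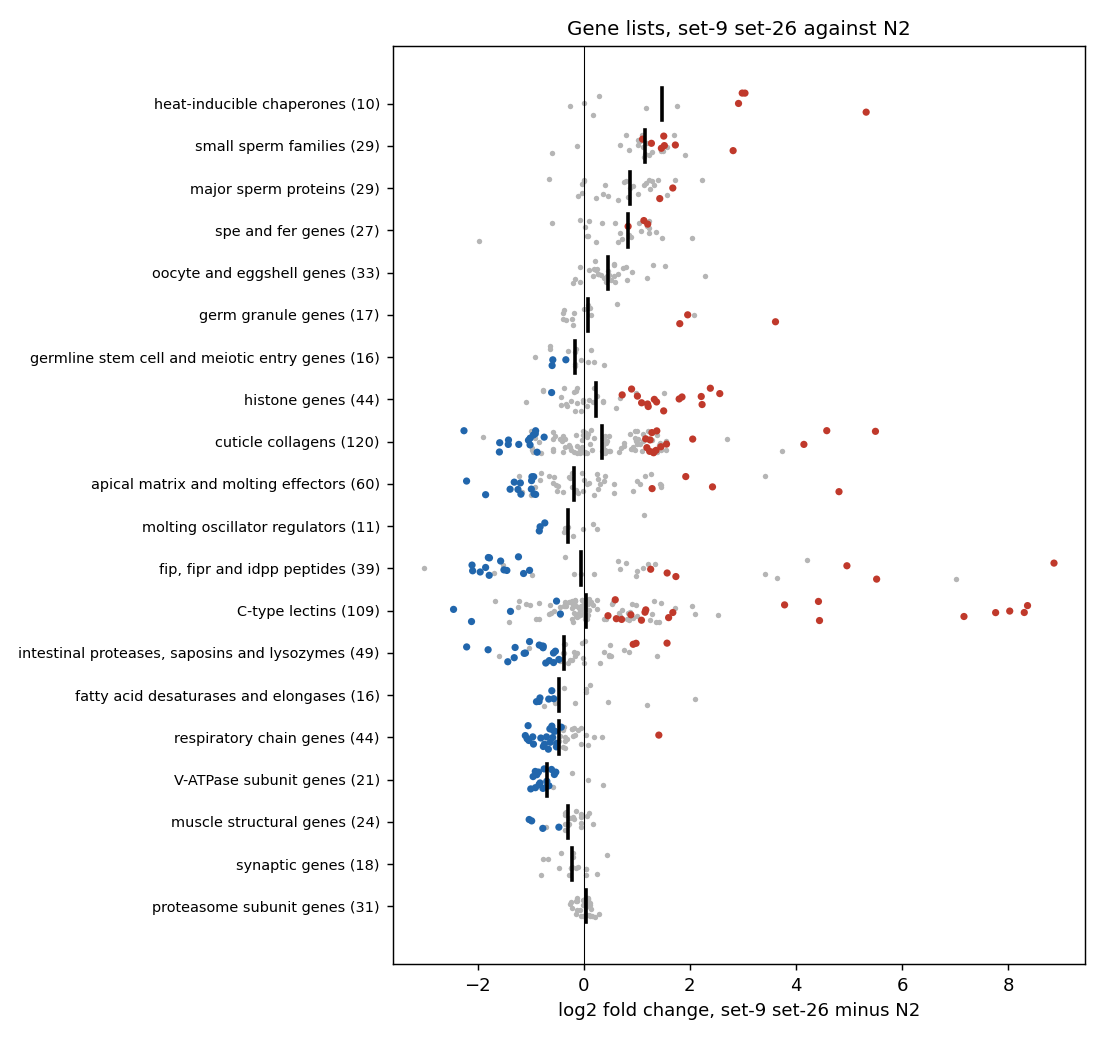
Log2 fold change, *set-9 set-26* minus N2, of the tested members of 20 gene lists, with the number tested in brackets. Red and blue points passed the 5% rate, grey points did not, and black bars are medians. All 16 called members of the V-ATPase list lie below 0, whereas the collagens and the C-type lectins have called members on both sides.

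Genes of the germline were examined first, by cell type. Sperm genes had positive medians, and the number called depended on the test. Among the major sperm proteins, the cytoskeletal proteins that drive crawling of nematode sperm, 2 of 29 were higher and 0 lower, with a median log2 fold change of 0.88 (counts without each library 5, 1, 0 and 0). DESeq2's Wald test called 7 of them higher, edgeR's exact test 9 and the fit with no filter on low counts 9. Of the small sperm-protein families (*ssp*, *spch* and *nspd* genes among them), 7 of 29 were higher and 0 lower, with a median of 1.15 (5, 0, 0 and 0 without each library), and the same alternatives called 11, 13 and 19. Of genes named for defective spermatogenesis or fertilization (*spe* and *fer*), 3 of 27 were higher, with a median of 0.84 (3, 1, 1 and 0), and those alternatives called 3, 7 and 8. *spe-41*, a TRP-type calcium channel gene required in sperm for fertilization, rose from 11.7 and 10.7 CPM to 24 and 27.7 (1.21, standard error 0.17, adjusted p = 0.0093, edgeR). *ssp-19* rose from 2.21 and 0.624 to 9.75 and 10.9 CPM (2.82, adjusted p = 0.028, edgeR), with adjusted p of 0.032 to 0.14 when 1 library was left out. The summed level of the small sperm families was 703 and 326 CPM in N2 and 1206 and 1254 in the double mutant, against 326 and 153 in the *set-9* mutant and 553 and 354 in *set-26*. Both double mutant libraries thus lay above all the others, while N2 replicate 1 lay above N2 replicate 2, and the part of this difference within N2 in the calls was not tested. Members of these families are near-identical in sequence, so reads may have been split between copies.

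Other germline lists had at most 3 called members each. In the oocyte and eggshell list 29 of 33 members had a log2 fold change above 0. Among regulators of stem cells and meiotic entry 12 of 16 were below 0. Of 33 oocyte and eggshell genes 0 passed the test, with a median of 0.45, against 5 higher and 0 lower at an unadjusted p under 0.05 (edgeR), 1 higher by DESeq2's Wald test and 3 higher by edgeR's exact test. Among regulators of germline stem cells and meiotic entry 3 of 16 were lower and 0 higher. These were *fbf-1*, a Pumilio-type RNA-binding protein gene that maintains stem cells, from 42.0 and 41.7 to 28.5 and 27 CPM (−0.59, adjusted p = 0.025, edgeR), *cye-1* (cyclin E, −0.58) and *atx-2* (ataxin 2, −0.34). None of the 3 was called without any 1 of the 4 libraries. Of germline small RNA genes, 3 of 24 were lower, the Argonaute genes *wago-4* (−0.82, adjusted p = 0.0089, edgeR) and *csr-1* (−0.49) and the nuclear RNAi gene *nrde-2* (−0.53), with 1, 1, 0 and 1 called without each library. In the list of synaptonemal complex, chromosome axis and recombination genes, *spo-11*, which makes the meiotic double-strand breaks, was higher (0.67) and the axis gene *htp-3* lower (−0.77) among 33. Of 25 genes of DNA replication and mitosis, *cyb-1* (cyclin B) alone was higher (0.72), and of 20 sex determination genes 0 were called by edgeR's quasi-likelihood test or DESeq2, with 2 higher and 1 lower at an unadjusted p under 0.05 and 1 higher by edgeR's exact test.

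Germ granule genes had 3 higher members of 17, and all 3 were *meg* genes, which act in the assembly of P granules in the embryo. *meg-2* (chromosome X, 13922643 to 13926129) rose from 2.17 and 1.82 CPM in N2 to 24.3 and 24.8 in the double mutant (3.61, standard error 0.31, adjusted p = 0.0023, edgeR) and was called in every fit. Its levels in the single mutants, 1.33 and 2.48 in the *set-9* mutant and 1.00 and 1.46 in *set-26*, were at those of N2, and the double mutant was above each (adjusted p = 0.0011 and 0.0011, edgeR). *meg-3* rose from 3.47 and 2.04 to 9.70 and 9.84 CPM (1.81, adjusted p = 0.036, edgeR) and *meg-4* from 1.50 and 1.30 to 5.51 and 5.45 (1.96, 0.030). Their adjusted p ran over 0.056 to 0.15 and 0.081 to 0.14 with 1 library left out. *meg-1* had 12.5 and 4.14 CPM in N2 and 35.8 and 35.7 in the double mutant (2.08, adjusted p = 0.069, edgeR). All 4 genes lie on the X chromosome, and the remaining germ granule genes, such as *pgl-1* (−0.34), had no called difference.

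Histone genes rose in clusters. Of 44 histone and linker histone genes tested, 15 were higher and 1 was lower, with a median of 0.23, and without each library 11, 11, 11 and 8 were higher. Every member of 2 gene clusters on chromosome V rose, and each cluster holds 1 gene of every core histone. In the cluster *his-1* to *his-4* (16040144 to 16042831), *his-1* (H4) rose from 28.3 and 28.4 CPM to 137 and 159.8 (2.39, standard error 0.13, adjusted p = 0.00091, edgeR) and *his-2* (H3) from 62.4 and 62.3 to 253 and 326 (2.21, 0.14, 0.00091). *his-4* (H2B) changed by 1.80 and *his-3* (H2A) by 0.73. In the cluster *his-5* to *his-8* (8532715 to 8535525) the log2 fold changes were 1.20 for *his-5* (H4), 1.37 for *his-6* (H3), 0.90 for *his-7* (H2A) and 1.22 for *his-8* (H2B).

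At *his-1* the *set-26* mutant was between N2 and the double mutant. It stood at 36.2 and 36.1 CPM in the *set-9* mutant and 51.5 and 61.3 in *set-26*, and the double mutant was above both (adjusted p = 0.00047 and 0.0023, edgeR), as it was at *his-2* and *his-4*. In the *his-5* to *his-8* cluster the differences from *set-26* did not pass the test (adjusted p = 0.056 to 0.82, edgeR). Outside the clusters, *his-40* on the X chromosome rose from 13.4 and 12.6 to 73.9 and 80.2 CPM (2.56, adjusted p = 0.0027, edgeR), *his-38* by 2.23, *his-32* by 1.51 and *his-17* by 1.09. *his-1*, *his-2*, *his-4*, *his-5*, *his-6*, *his-17*, *his-32* and *his-40* were called in every fit. The summed level of the list, 5928 and 5479.8 CPM in N2 and 5354 and 6524 in the double mutant, overlapped between genotypes. Copies of a core histone gene are near-identical, and the levels of single copies are therefore uncertain. Among linker histones *hil-7* was higher (1.85) and *hil-5* lower (−0.60).

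Of 15 factors that write, erase or assemble H3K4 methylation 0 were called by edgeR's quasi-likelihood test, with 3 higher and 1 lower at an unadjusted p under 0.05 and 1 higher by DESeq2's Wald test and by edgeR's exact test, and of 15 factors for H3K9, H3K27 and H3K36 methylation 1 was higher and 1 lower. *utx-1* (chromosome X, 8557146 to 8563238), the H3K27 demethylase gene, rose from 9.89 and 12.9 CPM to 35.4 and 47.9 (1.88, standard error 0.20, adjusted p = 0.0045, edgeR). It stood at 10.7 and 12.1 in the *set-9* mutant and 14.4 and 15.3 in *set-26*, below the double mutant in both tests (adjusted p = 0.0019 and 0.0078, edgeR), and was called in every fit. *set-25*, a gene for H3K9 methylation, fell from 59.7 and 53.3 to 43.9 and 39.1 CPM (−0.44, adjusted p = 0.047, edgeR), at the edge of the threshold, and it overlaps another gene. Among further genes of the X chromosome called in every fit and named after their values were seen, the cohesin subunit gene *coh-1* changed by 1.20, the C/EBP-type transcription factor gene *cebp-1* by 1.21 and *usp-33*, of a deubiquitinase family, by 1.35. Each was above both single mutants, with adjusted p from 0.0016 to 0.0043 (edgeR).

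In the epidermis, collagen genes moved both ways. Collagens with *col* names form most of the cuticle, and individual genes are switched on for one larval stage or one part of the molting cycle. Of 120 tested, 15 were higher and 14 lower, with a median of 0.35. The counts without each library were 8, 4, 1 and 1 higher and 10, 13, 5 and 3 lower. *col-166* fell from 1051 and 1009 CPM to 373 and 315 (−1.58, standard error 0.16, adjusted p = 0.0036, edgeR), and *col-10* from 2904 and 2423 to 1287 and 1474 (−0.95, adjusted p = 0.0075, edgeR). In both single mutants these genes were above N2 rather than below it, with 1971 and 2368 CPM of *col-166* in the *set-9* mutant and 1680.4 and 2149 in *set-26*, so that the log2 difference of the double mutant was −2.66 from *set-9* and −2.48 from *set-26* (adjusted p = 0.00040 and 0.00070, edgeR). The adjacent *col-167*, *col-168*, *col-169* and *col-170* on the X chromosome (6323488 to 6332611) fell as well, with log2 fold changes of −0.91, −0.88, −1.42 and −1.04, from 715 and 647 to 266 and 243 CPM for *col-169*. *col-107*, the most abundant collagen that rose, went from 537 and 494 to 1267 and 1246 CPM (1.29, adjusted p = 0.0045, edgeR), with 1474 and 1289 in *set-26*. Larger log2 changes occurred at collagens that were near 0 in N2, such as *col-74* (0 and 4 reads in N2 and 101 and 80 in the double mutant) and *col-165* (7 and 2 reads in N2 and 104 and 89 in the double mutant).

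Collagens that shape the body also moved both ways, with 2 higher, 3 lower and 14 not called among 19 tested. The most abundant of them, *dpy-4* (0.85, adjusted p = 0.14, edgeR) and *dpy-13* (0.94, 0.12), had positive log2 fold changes that did not pass the test. Summed over the list, the level was 11529 and 18023 CPM in N2 and 22391 and 21090 in the double mutant. It was 7573 and 5575 in the *set-9* mutant and 12070 and 7216 in *set-26*. *dpy-14* rose from 0.0394 and 0.113 CPM to 7.37 and 5.71 (1 and 2 reads against 139 and 112, adjusted p = 0.0047, edgeR) and *dpy-17* from 1.89 and 1.59 to 11.5 and 12.7 (2.79, standard error 0.28, adjusted p = 0.0041, edgeR). Both were called in every fit, and both single mutants stayed at N2 levels, with *dpy-17* at 1.94 and 1.30 CPM in the *set-9* mutant and 1.00 and 1.35 in *set-26*. The furrow collagens *dpy-2*, *dpy-9* and *dpy-10* were lower, with log2 fold changes of −0.86, −1.26 and −1.0, and 0 of the 3 were called without either double mutant library or N2 replicate 2. At *dpy-10* the double mutant (43.2 and 47.3 CPM) was close to *set-9* (34.3 and 50.4) and *set-26* (31.9 and 44.2), while N2 was at 80.2 and 100.3. *dpy-6*, a mucin-like cuticle gene outside the list and named after its values were seen, fell from 585 and 500.0 to 133 and 126 CPM (−2.07, adjusted p = 0.0036, edgeR) and was below both single mutants (adjusted p = 0.00076 and 0.0019, edgeR).

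Genes for the apical extracellular matrix and for molting had 13 lower and 4 higher members of 60, and 43 did not pass the test, with a median of −0.19 and with 11, 5, 3 and 0 lower without each library. *mlt-11*, a protease inhibitor gene needed for molting, fell from 6932 and 8871 CPM to 4121 and 4108 (−0.94, standard error 0.18, adjusted p = 0.022, edgeR). *fbn-1*, a fibrillin-like matrix gene, fell from 498 and 521 to 139.8 and 143 (−1.85, 0.28, 0.011), and *sym-1* from 1838 and 1954 to 759 and 691 (−1.39, 0.17, 0.0064). *mlt-11* and *fbn-1* behaved differently in the other mutants. The level of *mlt-11* was 3177 and 4401 in the *set-9* mutant and 2947 and 3513 in *set-26*, so that all 3 mutants were below N2 and the difference of the double mutant from either did not pass the test (adjusted p = 0.67 and 0.23, edgeR), whereas *fbn-1* was at 441 and 711 and 349 and 580.0, and the double mutant was below both (adjusted p = 0.0040 and 0.015).

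The summed level of this list was 14877 and 18543 CPM in N2, 9391 and 9202 in the double mutant, 7889 and 10532 in the *set-9* mutant and 7557 and 8723 in *set-26*, with N2 above every mutant library. The lipocalin-related genes *lpr-3* (−0.99), *lpr-4* (−1.24), *lpr-5* (−0.97) and *lpr-6* (−1.31), neighbours on the X chromosome, were lower than N2, as were the matrix genes *noah-1* (−0.91) and *noah-2* (−0.98). Of these 6, *lpr-6* alone was also below a single mutant (adjusted p = 0.044 against *set-9*, edgeR). Of the members that rose, *cut-3*, a cuticlin gene, had 5 and 2 reads in N2 and 82 and 98 in the double mutant (adjusted p = 0.0053, edgeR). Of 11 regulators of the molting cycle 3 were lower: *nhr-23*, a nuclear receptor gene, from 138 and 106 to 73.2 and 65.0 CPM (−0.82), *elt-3*, an epidermal GATA factor gene (−0.84), and *myrf-1* (−0.73), with 2, 2, 1 and 0 called without each library. Of 7 heterochronic genes, which time larval stages, *lin-29* was lower, from 132 and 139 to 88.4 and 73.9 CPM (−0.74, adjusted p = 0.016, edgeR). The labels give no hour within L4, and the part of developmental timing in these differences was not tested.

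Hedgehog-related ligands, secreted proteins of the epidermis, had 3 higher and 3 lower members of 38. *grd-13* fell from 85.7 and 69.1 CPM to 20.8 and 19.0 (−1.96, standard error 0.13, adjusted p = 0.00091, edgeR) and *grd-10* from 71.3 and 71.0 to 23.3 and 20.5 (−1.70, 0.13, 0.0015), and both were called in every fit. As with *col-166*, the single mutants lay on the other side of N2: *grd-13* was at 202 and 196 in the *set-9* mutant and 215 and 222 in *set-26*, and the double mutant was below them by log2 differences of −3.32 and −3.46. *wrt-10* was lower (−1.33), and *grd-11* (2.23), *grl-22* (1.68) and the abundant *grl-16* (1.40) were higher, these 3 with 0 called without any 1 library. Of 26 Patched-related receptors 3 were lower, *ptr-8*, *ptr-10* and *ptr-12*, with log2 fold changes of −1.11, −1.0 and −0.91.

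Genes with *fip*, *fipr* and *idpp* names moved both ways, neighbours together. Of 39 tested 13 were lower and 6 higher, with 7, 9, 6 and 3 lower and 1, 4, 0 and 0 higher without each library. *fipr-2* fell from 70.4 and 59.0 CPM to 19.2 and 14.3 (−1.95, standard error 0.17, adjusted p = 0.0027, edgeR), and its neighbour *fipr-1* changed by −2.09. A second stretch of chromosome V, from 10220981 to 10230163, held *fipr-5* (−1.78), *fipr-9* (−1.23), *fipr-4* (−1.77) and *fipr-7* (−1.80), together with *daf-36* (−1.02), a gene of steroid hormone synthesis. On chromosome III, in contrast, *fipr-17*, *fipr-19* and *fipr-20* rose from at most 3 reads in any N2 library to 41 and 47 reads, 81 and 59 reads and 68 and 48 reads.

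Adjacent genes shared a direction more widely. Of 626 higher protein-coding genes 132 (21.1%) had a higher gene as the next tested, non-overlapping neighbour on at least one side, against 7.99% of all 13809 tested protein-coding genes, and of 854 lower genes 153 (17.9%) had a lower neighbour, against 10.4%. Neighbours can be copies of one another or share an operon, so these are descriptions of place only. The letters CACGTG, an E-box bound by basic helix-loop-helix factors, were in the 250 bases before the start of 60 of the 626 higher genes (9.58%) and of 4.45% of the 854 lower ones, against 5.3% of all 13794 with sequence. These shares were not tested. Stretches of 4 or more adjacent called genes numbered 7. Besides the histone, collagen, *lpr* and *fipr* stretches, *lido-8*, *lido-9*, *lido-10*, *lido-11* and *lido-12* on chromosome II (2997021 to 3007510) rose together, with log2 fold changes of 0.95, 1.45, 2.32, 1.75 and 2.16.

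**Figure D4:**
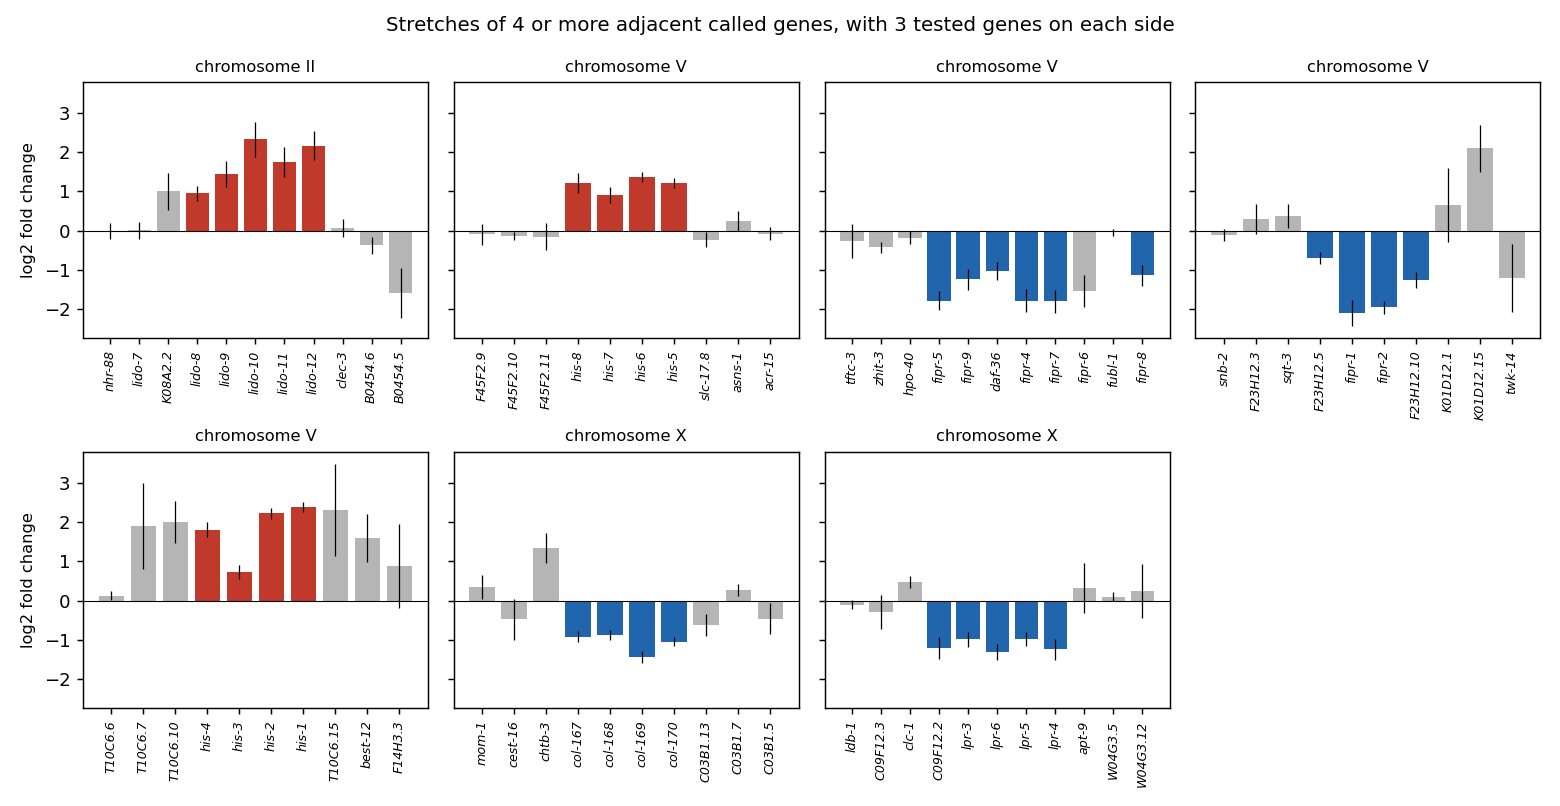
Log2 fold change (bars, with standard errors as lines), *set-9 set-26* minus N2, along the 7 stretches of at least 4 adjacent called protein-coding genes, with up to 3 tested genes on each side in chromosomal order. Red and blue bars passed the 5% rate and grey bars did not. Genes beside *his-5* to *his-8* lie near 0, while 5 of the 6 genes beside *his-1* to *his-4* have positive values that did not pass the test.

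Several genes induced by heat were higher in worms for which the protocols name no heat shock. Of 10 chaperone genes in the list 4 rose and 0 fell, with a median of 1.47. The 4 were the small heat shock genes *hsp-16.1*, *hsp-16.2* and *hsp-16.41* and the Hsp70 gene *hsp-70*. Heat shock factor binds repeats of the triplet GAA and its complement, and the bases before the start of 3 genes are shown because these regions carry such repeats. They were read from RefSeq WBcel235, end at the base before the annotated gene start, and are written in the direction of the gene, with matches in capitals, where a match is TTC, any pair of bases, GAA, any pair of bases and TTC, or the same with GAA and TTC exchanged, searched on both strands. The region of *hsp-16.2* (chrV:1804958-1805177, minus strand) fills the whole interval to the divergent *hsp-16.41*, *hsp-16.1* has the region chrV:9089877-9090076 (plus strand), and *F44E5.4* has chrII:11759312-11759561 (minus strand).

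hsp-16.2: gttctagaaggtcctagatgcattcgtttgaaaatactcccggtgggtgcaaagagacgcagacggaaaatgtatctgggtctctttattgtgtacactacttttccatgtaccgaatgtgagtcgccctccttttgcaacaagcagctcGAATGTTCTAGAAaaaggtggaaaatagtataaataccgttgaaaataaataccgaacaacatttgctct
hsp-16.1: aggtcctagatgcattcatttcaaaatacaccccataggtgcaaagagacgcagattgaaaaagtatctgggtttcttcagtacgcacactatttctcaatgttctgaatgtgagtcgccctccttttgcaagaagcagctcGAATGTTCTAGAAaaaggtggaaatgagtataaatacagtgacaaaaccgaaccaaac
F44E5.4: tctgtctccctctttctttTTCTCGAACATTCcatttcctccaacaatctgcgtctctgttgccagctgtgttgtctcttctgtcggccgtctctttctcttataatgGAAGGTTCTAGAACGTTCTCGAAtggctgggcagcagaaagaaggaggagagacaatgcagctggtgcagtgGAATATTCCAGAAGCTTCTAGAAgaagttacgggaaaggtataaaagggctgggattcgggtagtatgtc

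The *hsp-16.2* and *hsp-16.1* regions each hold 1 match in these bases, 70 and 58 bases before the start, and *F44E5.4* holds 7, some of which overlap. In the 250 bases before the start, a match was found for 1.59% of 13794 tested protein-coding genes, for 1.92% of the 626 higher ones and for 5 of the 10 chaperone genes, which were the 4 that rose and *F44E5.4*. The 1 match in the interval between *hsp-16.2* and *hsp-16.41* counts for both genes, so these are not separate matches. A match is a description of these letters and shows no binding.

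*hsp-16.1* rose from 1.14 and 1.76 CPM to 15.1 and 7.70 (2.99, standard error 0.38, adjusted p = 0.0066, edgeR) and was called in every fit. *hsp-16.2* rose from 0.63 and 0.737 to 7.10 and 3.26 (2.92, 0.46, 0.013), *hsp-70* from 1.02 and 1.08 to 8.11 and 9.22 (3.04, 0.43, 0.0086), and *hsp-16.41* from 1 and 1 reads to 34 and 48 (0.022). These levels were low next to those of *hsp-4*, the chaperone gene of the endoplasmic reticulum, at 229 and 247 CPM in N2 and 262 and 276 in the double mutant. The *set-26* mutant was also high, with 10.9 and 11.3 CPM of *hsp-16.1*, and the difference of the double mutant from it did not pass the test at any of the 4 (adjusted p from 0.088 to 0.96, edgeR), whereas it was above *set-9* at all 4 (adjusted p from 0.0048 to 0.033). *F44E5.4*, another Hsp70 gene, had 0.63 and 1.08 CPM in N2 and 2.07 and 1.73 in the double mutant (adjusted p = 0.13, edgeR). Without each library 2, 2, 2 and 2 of the list were called. The *hsp-16* genes are near-identical in pairs, so their reads may be split.

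Of 10 genes of the insulin signalling pathway, which shortens lifespan through the FOXO factor DAF-16, 2 were higher, the kinase genes *pdk-1*, from 12.1 and 15.4 CPM to 29.6 and 29.4 (1.10, adjusted p = 0.0086, edgeR), and *akt-1* (0.54, 0.039). *daf-2*, the receptor gene, was at 87.0 and 90.4 CPM in N2 and 84.3 and 93.2 in the double mutant, and *daf-16* at 325 and 378 in N2 and 261 and 309 in the double mutant. Among 17 genes known as targets of DAF-16, *dod-3* (2.97), *gst-4* (1.00) and *icl-1*, the glyoxylate cycle enzyme gene (0.84), were higher and *fat-7* was lower (−0.82). *sod-3* had 0.945 and 0.964 CPM in N2 and 2.60 and 2.40 in the double mutant and did not pass the test (adjusted p = 0.051, edgeR), and of this list 0, 0, 0 and 1 were higher without each library.

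Genes of the V-ATPase and part of the respiratory chain were lower. Of 21 genes of the V-ATPase, the proton pump of lysosomes and apical membranes, 16 were lower and 0 higher, with a median log2 fold change of −0.69, against 5.91% of all tested genes lower. Without each library 11, 9, 9 and 5 were lower, and with a 2-fold limit 0 were. *vha-12* (subunit B) fell from 1207 and 1180.3 CPM to 665 and 658 (−0.85, standard error 0.09, adjusted p = 0.0041, edgeR) and *vha-11* (subunit C) from 657 and 703 to 360.2 and 364 (−0.91, 0.10, 0.0047). The subunit a has 4 genes with different tissues. *vha-6*, which serves the intestine, and *vha-5*, which serves the epidermis and excretory canal, were lower (log2 fold changes of −0.88 and −0.91). *vha-7* (−0.57) and *unc-32*, the form needed in neurons (0.09), did not pass the test. With 1 library left out, the ranges of *vha-5* (−1.02 to −0.79) and *vha-7* (−1.24 to −0.12) overlapped, and a difference between these genes was not tested. *unc-32* stood at 83.0 and 104 CPM in N2 and 93.1 and 106 in the double mutant, with overlapping ranges.

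Of 44 nuclear genes of the respiratory chain 20 were lower and 1 was higher, with a median of −0.46 and with 11, 6, 5 and 4 lower without each library. By complex, the lower genes were 6 of 7 in complex III, 6 of 9 in the ATP synthase, 2 of 5 in complex II, 4 of 13 in complex IV and 2 of 8 in complex I. *atp-2*, the beta subunit of the ATP synthase, fell from 3611 and 3589 CPM to 1569.9 and 1791 (−1.10, standard error 0.10, adjusted p = 0.0027, edgeR), and *isp-1*, the Rieske protein gene of complex III, from 524 and 451 to 234 and 232 (−1.07, 0.13, 0.0056). *ant-1.1*, which exchanges ADP for ATP across the inner membrane, changed by −0.93, and *mai-2*, an ATP synthase inhibitor gene named after its values were seen, by −1.09. The exception was *cyc-2.2*, a second cytochrome *c* gene, which rose from 7.60 and 9.08 to 23.7 and 20.7 CPM (1.42, adjusted p = 0.012, edgeR).

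The *set-26* mutant shared much of this decrease. The summed level of the respiratory genes was 20539 and 21042 CPM in N2, 21861 and 22494 in the *set-9* mutant, 14975 and 14751 in *set-26* and 12079 and 12711 in the double mutant, and that of the V-ATPase genes 9734 and 9844 in N2, 10300.0 and 10372 in the *set-9* mutant, 6888 and 6977 in *set-26* and 6067 and 5857 in the double mutant. In both lists every double mutant library was below every other library. For *vha-12* and *isp-1* the difference between double mutant and *set-26* did not pass the test (adjusted p = 0.060 and 0.14, edgeR), and for *atp-2* it did (−0.47, adjusted p = 0.031). Ribosomal protein genes had 3 lower members of 80, with a median of −0.21, and proteasome genes 0 called of 31 by edgeR or DESeq2, with 1 higher and 2 lower at an unadjusted p under 0.05.

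**Figure D5:**
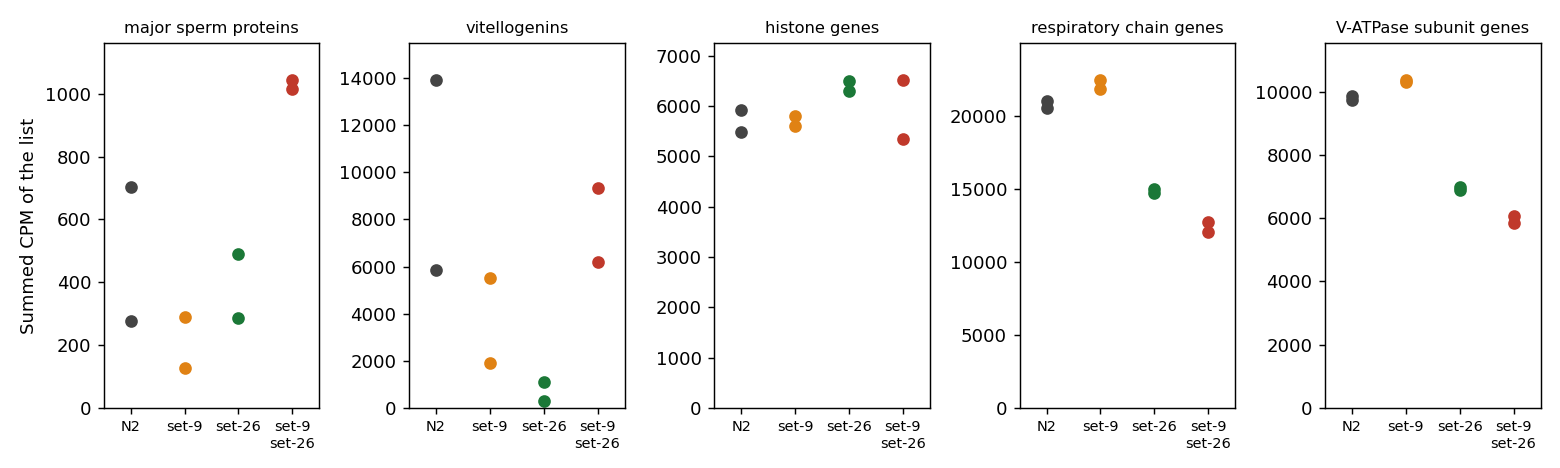
Summed CPM of the major sperm proteins, vitellogenins, histone genes, respiratory chain genes and V-ATPase genes in each of the 8 libraries, with 2 points per genotype and axes that start at 0. The respiratory chain and V-ATPase sums are lowest in the double mutant and next lowest in *set-26*, and the major sperm protein sum is highest in the double mutant. The vitellogenin and major sperm protein sums differ widely between the N2 libraries and between the libraries of each single mutant.

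Digestive enzymes of the intestine fell too. Of 49 cathepsin-type proteases, saposins and lysozymes 18 were lower and 3 higher, with a median of −0.38 and 10, 11, 8 and 9 lower without each library. *asp-12*, an aspartyl protease gene, fell from 72.6 and 73.1 CPM to 15.5 and 16.1 (−2.20, standard error 0.14, adjusted p = 0.00091, edgeR), and *cpr-1*, a cathepsin B gene, from 578 and 701 to 172 and 195 (−1.80, 0.14, 0.0018). *asp-1*, one of the most abundant RNAs of the table, fell from 8997 and 8581 to 4963 and 5383 (−0.76, 0.08, 0.0043). The double mutant was below *set-9* and *set-26* at all 3 genes, with the smallest difference at *cpr-1* against *set-26* (−0.58, adjusted p = 0.044, edgeR). Summed over the list, N2 was at 23321 and 23832 CPM, the double mutant at 14760.0 and 15879, the *set-9* mutant at 24643 and 25478 and *set-26* at 19627 and 20234. The lysozyme genes *lys-1* (0.93) and *lys-2* (1.57), named with the protease gene *asp-17* (0.99) as the members that rose, went the other way.

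GATA factors such as ELT-2 bind the letters TGATAA in intestinal promoters. These letters, on either strand, were in the 250 bases before the start of 32 of 49 genes of this list (65.3%), against 27.4% of tested protein-coding genes and 33.7% of the lower ones. Among its 21 called members 12 had them (57.1%). The region of *cpr-1* (chrV:11975351-11975550, plus strand, RefSeq WBcel235) is shown as that of a member that fell and carries 2 copies, in capitals, 147 and 51 bases before the start.

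cpr-1: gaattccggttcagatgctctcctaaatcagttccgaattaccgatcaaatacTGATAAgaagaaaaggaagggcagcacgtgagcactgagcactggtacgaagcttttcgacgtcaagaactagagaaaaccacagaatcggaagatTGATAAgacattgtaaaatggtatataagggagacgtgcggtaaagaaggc

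The vitellogenins, yolk proteins that the adult intestine makes, had 0 called members of 6 by edgeR's quasi-likelihood test and 1 lower member at an unadjusted p under 0.05, by DESeq2's Wald test and by edgeR's exact test, with levels such as 5839.7 and 2471 CPM of *vit-6* in N2 and 3994 and 2866 in the double mutant. Of 16 fatty acid desaturases and elongases 6 were lower and 0 higher, with a median of −0.46 and 3, 2, 3 and 1 lower without each library. *elo-1*, which lengthens polyunsaturated fatty acids, fell from 666 and 615 CPM to 359 and 356 (−0.84, standard error 0.10, adjusted p = 0.0051, edgeR), and *elo-5* (−0.89) and the desaturase genes *fat-7* (−0.82) and *fat-3* (−0.66) were lower too. Among cytochrome P450, UGT and glutathione transferase genes, which act on foreign compounds, 5 of 144 were higher and 11 lower. *gst-24* rose from 5.20 and 6.52 to 22.8 and 21.3 CPM (1.92, adjusted p = 0.0054, edgeR), with 23.2 and 34.7 in *set-26*.

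C-type lectins, many of which answer to microbes, had 18 higher and 5 lower members of 109, although their median was 0.05. Without each library 5, 3, 2 and 2 were higher. *clec-52* rose from 33.2 and 27.1 CPM to 102 and 80.9 (1.60, standard error 0.19, adjusted p = 0.0053, edgeR) and *clec-137* from 0.197 and 0.397 to 7.63 and 5.10 (4.44, 0.52, 0.0053), and these 2 were called in every fit. Several of the others were at 0 reads in N2, such as *clec-197*, with 49 and 33 reads in the double mutant. Of 14 antimicrobial peptide genes of the epidermis *cnc-4* (2.92) and *nlp-34* (0.85) were higher and *nlp-26* (−2.56) and *cnc-8* (−1.07) lower.

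Of 24 muscle structural genes 4 were lower, with a median of −0.29 and 2, 2, 3 and 0 without each library. The pharyngeal myosin genes *myo-2*, from 415 and 447 CPM to 222 and 200.5 (−1.03, adjusted p = 0.0058, edgeR), and *myo-1* (−0.98) and the pharyngeal troponin I gene *tni-4* (−0.77) were among them, and the double mutant was below both single mutants at *myo-2* (adjusted p = 0.0016 and 0.0039, edgeR). The remaining called member, *mup-2*, fell from 1527 and 1563 to 1131 and 1105 CPM (−0.47, adjusted p = 0.022, edgeR). Of the 24 genes, 21 had a log2 fold change below 0, and a difference between pharynx and body wall was not tested. *tnt-4*, a troponin T gene outside the list and named after its values were seen, was lower (−1.19) and was called in every fit. *unc-54*, the body wall myosin gene, was at 10862 and 12062 CPM in N2 and 9131 and 9538 in the double mutant (adjusted p = 0.075, edgeR). Of 18 synaptic genes 0 were called, with a median of −0.21 and 3 lower at an unadjusted p under 0.05 (edgeR), and of 21 insulin-like peptide genes 0 were, with 2 higher and 2 lower at an unadjusted p under 0.05. DESeq2's Wald test called 0 in both lists, and edgeR's exact test 1 higher insulin-like peptide gene. Of 71 tested genes in a list made from names of the serpentine receptor kind, 4 were higher and 6 lower. Whether each member is a receptor was not checked. The list took in *srap-1* (−0.91) and *srlf* genes, a family with 3 higher and 2 lower members of 18 tested. Of 22 genes of intraflagellar transport, which builds sensory cilia, *che-3*, the dynein heavy chain gene, was the only one called. It rose from 14.1 and 17.3 to 54.4 and 62.3 CPM (1.90, standard error 0.17, adjusted p = 0.0027, edgeR), against 14.5 and 18.2 in the *set-9* mutant and 20.4 and 19.7 in *set-26*, and it overlaps an annotated piRNA.

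Ion transport genes moved both ways. Of 13 P-type cation ATPases 4 were lower, among them *eat-6*, the sodium pump (−0.67), and *sca-1*, the calcium pump of the sarcoplasmic reticulum (−0.57), and 1 was higher. This was *catp-3*, which rose from 15.2 and 14.4 CPM to 61.6 and 56.3 (1.99, standard error 0.13, adjusted p = 0.00091, edgeR). It stood at 65.4 and 60.7 CPM in *set-9* (adjusted p = 0.60 against the double mutant, edgeR) and was higher in *set-26* (log2 difference of the double mutant −0.88, adjusted p = 0.0082 against the double mutant, edgeR). Of 24 innexins, the gap junction proteins of invertebrates, 3 were higher and 3 lower. *inx-2* rose from 0.906 and 1.53 to 11.1 and 7.59 CPM (2.96, standard error 0.34, adjusted p = 0.0052, edgeR), above both single mutants (adjusted p = 0.0099 and 0.024), and *inx-6* of the pharynx was lower (−0.73).

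*M04C3.1* fell from 168 and 177 CPM to 49.3 and 39.9 (−1.95, standard error 0.13, adjusted p = 0.0011, edgeR). It was at 55.8 and 59.2 in *set-26* (adjusted p = 0.11 against the double mutant, edgeR). A similar likeness to *set-26* was seen at *tbb-6*, a beta-tubulin gene named after its values were seen, which rose from 4.14 and 4.71 to 40.6 and 36.5 CPM (3.13, adjusted p = 0.00091, edgeR) and was at 34.0 and 38.4 in *set-26* (adjusted p = 0.71 against the double mutant). Among the most abundant genes that rose, *ZK84.1* went from 534 and 614 to 1566 and 1726 CPM (1.52, adjusted p = 0.017, edgeR) and *nmy-1*, a non-muscle myosin gene, from 561 and 526 to 845 and 761 (0.56, 0.038). Among the most abundant that fell, *ahcy-1*, whose enzyme clears the product of methyl transfer from S-adenosylmethionine, went from 5701 and 6205 to 3187 and 3383 (−0.86, 0.0053) and *ndk-1*, a nucleoside diphosphate kinase gene, from 4805 and 5005 to 3259.6 and 3453 (−0.55, 0.011). *ahcy-1* was called in every fit and was below both single mutants (adjusted p = 0.0015 and 0.0075, edgeR).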

How the data were processed

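Total RNA of whole L4 worms was depleted of ribosomal RNA, and libraries were made with the NuGEN Ovation Human FFPE RNA-Seq kit. Per the study's methods, the authors trimmed the reads, removed tRNA and rRNA reads, aligned the rest to the *C. elegans* WS250 genome with TopHat2 and took raw counts per gene from Cufflinks. Whether strand was used is not given in the sources used here, so reads of overlapping genes cannot be told apart. Overlaps are noted above for some genes only. Others that overlap an annotated gene include *abt-1*, WBGene00011619, *spo-11*, *sym-1*, *pdk-1*, *akt-1*, *cut-3*, *lin-29* and *gst-4*. The deposited values are estimated counts, 52.3% of the values above 0 being whole, with no scaling for depth. A gene with 0 reads has a floor of 3 reads, 0.118 to 0.195 CPM by library, which covers counting error only.

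Counts were rounded, and 93 entries labelled as landmarks, with 0.22 to 0.28% of the reads by library, were left out. Adding their reads to the genes whose symbols they carry gave 649 higher and 869 lower genes. Genes that reached 20 reads in any 1 of 8 libraries were kept and scaled with TMM. One mean per genotype was fitted with edgeR (4.0.16), and *set-9 set-26* was tested against N2 with the quasi-likelihood test and Benjamini-Hochberg adjustment over 14667 genes at 5%. With 2 libraries a group, no permutation test can reach the threshold. Standard errors are the log2 fold change over the square root of F. The same fit gave the differences from the single mutants. Symbols were found for 43184 of 46508 genes, and positions came from Ensembl's WBcel235 annotation, for 45919. The steps were tested on simulated data.

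Named genes were *set-9*, the 10 largest changes and the 10 most abundant called genes of each direction, the 4 called members of each list with the smallest adjusted p, its 2 most abundant members, every member of lists under 12, and genes the study measured by quantitative PCR. Others were chosen after their values were seen, including members of adjacent stretches, members that rose in a list that fell and genes called in every fit. Members and lists were chosen with earlier results of these data known. Alternatives changed the scaling, test, filter, libraries and block. E-box, GATA and heat shock motifs were searched after the changes were known.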

Additional observations from a re-analysis of the deposited data

How the results depend on the processing

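The counts of called genes moved with the libraries, the test, the filter and the fold limit. Against 649 higher and 867 lower genes, edgeR's exact test gave 1323 and 1136, no filter on low counts 1269 and 1216, the N2 and double mutant libraries alone 699 and 559, and a 2-fold limit 489 and 268, so that higher genes outnumbered lower ones in these 4. Leaving out 1 library gave 54 to 342 higher and 80 to 397 lower genes. Adding a replicate block to the fit raised the counts to 1150 higher and 1292 lower genes and lost 0 of 207 calls of genes that the naming rule or the text singled out, and it called 10 major sperm protein genes higher in place of 2, 20 small sperm family genes in place of 7, 13 muscle genes lower in place of 4 and 23 ribosomal protein genes in place of 3. The labels do not say that numbers mark a shared batch. The deviations of same-numbered libraries correlated with r = 0.0748 between N2 and the double mutant and with 0.0679 to 0.351 over the other pairs of genotypes, so the pairing was not used. None of these 207 genes changed sign under any alternative run. Values that did not pass could, as for *unc-32* (−0.07 to 0.26) and *vit-6* (−0.77 to 0.47). Of the 207, 80 and 94 missed the threshold without N2 replicate 1 and 2, 121 and 145 without double mutant replicate 1 and 2, 29 with the 4 libraries alone and 75 with the 2-fold limit, which each rest on fewer libraries or a stricter limit. DESeq2's Wald test lost 8 of them and each scaling at most 5. Low read numbers limit the genes near 0 in N2, and fold changes against 0 reads are lower bounds.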
